A study of Mus musculus with 19 samples.

Results

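Interferon-stimulated genes are the genes that cells switch on when they sense interferon. The 38 described here are a list of mouse symbols, from *Mx1* to *Ly6e*, that were looked up by name in the gene columns of each expression table. All 38 were found among the 55573 genes of the table of 7 tissues, among the 55487 genes of the brown adipose tissue (BAT) table and among the 13756 genes of the inguinal white adipose tissue (iWAT) table. The list holds 4 transcription factors, 4 sensors of nucleic acid, ISG15 with its protease, 2 Mx GTPases, 4 IFIT proteins, 6 members of the oligoadenylate synthetase family, 5 guanylate-binding or immunity-related GTPases, 8 other antiviral effectors and 3 further induced proteins.

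Type I interferons bind a receptor that activates Janus kinases, which phosphorylate STAT2. With IRF9 it forms part of a complex that binds the interferon-stimulated response element (ISRE) in promoters, whereas interferon gamma acts mainly through the gamma-activated site (GAS). The induced proteins block viruses and other intracellular microbes, and several of them are sensors or transcription factors of the same pathway, so that the response feeds back on itself. In tissues that are not infected the genes are known for a low steady level, which is higher in immune cells and at surfaces that meet microbes.

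The cold-exposed mice of both depots were male, 5 months old and fed chow, and were kept at 8 °C for 1 week. MCK-Musclin mice carry the coding sequence of Musclin (*Ostn*, a peptide secreted by muscle) driven by the promoter of muscle creatine kinase (MCK), a promoter of skeletal muscle, on a C57BL/6J background, and the founder line is not given in the sources used here. They were compared with wild type (WT) mice in iWAT and in BAT, with 3 libraries per genotype and depot, each from another animal by the methods of the study. The 7 tissues came from C57BL/6J WT mice with no treatment and 1 library each, so that their differences have no replicate check and were given no test. Values are FPKM, the fragments of a gene scaled to its exon length and to the mapped fragments of the library, which can be compared between genes. RNA of white adipose tissue and iWAT was isolated with a kit and that of the other tissues with TRIzol, so that tissue and extraction cannot be told apart.

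To show what the promoters of the members share, the part around the best known interferon motifs is printed for 8 of them, from the RefSeq promoter table for GRCm38.p6, which holds 250 bases before and 50 after each start site. Of the 38 members 28 have at least 1 promoter there, 33 promoters in all. *Mx1*, *Mx2*, *Ifi27l2a*, *Oas2*, *Usp18*, *Rtp4*, *Dhx58*, *Zbp1*, *Parp14* and *Ly6e* have none. Capitals mark a match to the ISRE core GAAANNGAAA, searched on both strands, or in *Irf1* to the GAS TTCNNNGAA, which reads the same on both strands. Sequences run 5′ to 3′ on the strand of the gene, and overlapping matches are merged. *Isg15* (chr4:156200860-156200911, minus strand, bases -93 to -42 from the start) holds 3 overlapping ISRE matches, and *Ifit1* (chr19:34640770-34640828, plus strand, -119 to -61) holds 2 on the opposite strand. *Ifit3* (chr19:34583358-34583431, plus strand, -171 to -98) and *Ifit3b* (chr19:34607754-34607827, plus strand, -203 to -130) share this stretch base for base. *Oas1a* (chr5:120907526-120907560, minus strand, -35 to -1) and *Oas1g* (chr5:120887614-120887646, minus strand, -33 to -1) have the same 2 overlapping matches directly before the start. *Igtp* (chr11:58199507-58199546, plus strand, -49 to -10) is shown for the GTPases and *Irf1* (chr11:53769909-53769947, plus strand, -105 to -67) for the GAS.
Isg15: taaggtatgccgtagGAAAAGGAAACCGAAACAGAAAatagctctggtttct
Ifit1: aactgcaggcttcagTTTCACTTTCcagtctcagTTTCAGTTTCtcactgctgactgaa
Ifit3 and Ifit3b: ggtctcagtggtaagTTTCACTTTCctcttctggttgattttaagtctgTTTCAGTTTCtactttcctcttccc
Oas1a: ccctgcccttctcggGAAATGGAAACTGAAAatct
Oas1g: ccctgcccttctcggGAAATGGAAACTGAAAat
Igtp: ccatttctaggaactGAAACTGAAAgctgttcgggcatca
Irf1: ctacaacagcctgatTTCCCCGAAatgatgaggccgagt

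An ISRE match was found in 17 of the 28 members with a promoter entry (60.7%), against 3.99% of the 27025 genes in the promoter table. Counted by promoter, 18 of 33 (54.5%) had a match, against 3.44% of 32851. The GAS letters were found in 6 of 28 members (21.4%), against 9.55% of all genes, and by promoter in 6 of 33 (18.2%), against 8.30%. In *Bst2* a GAS match and an ISRE match share letters, and the window of *Igtp* also holds a GAS match (-45 to -37), left in lower case. Matches in *Isg15*, *Ifit1*, *Oas1a*, *Oas1g*, *Igtp*, *Irgm1*, *Gbp2*, *Gbp3* and *Oas3* that fit the ISRE lay between base -104 and the start, as the plot of motif positions shows. A match describes these letters only, and binding was not measured. Of the members with an entry, an ISRE was found in 5 of the 10 that were higher at the cutoff in iWAT described further on, and in 12 of the other 18.

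**Figure D1:**
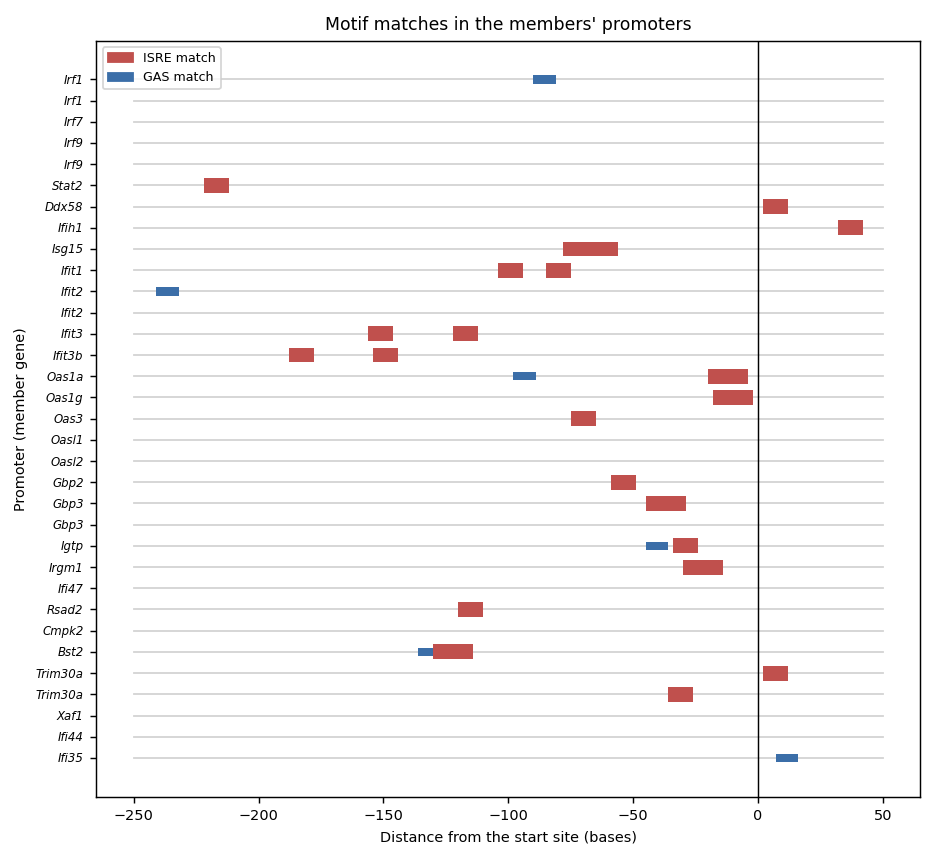
Positions of ISRE (red) and GAS (blue) matches in the 33 promoters of 28 members, in bases from the start site (x axis), with 1 line per promoter and the members ordered by role. Most red blocks lie between base -104 and the start, while *Irf7*, *Irf9*, *Oasl1*, *Oasl2*, *Ifi47*, *Ifi44*, *Cmpk2* and *Xaf1* have no match in this window.

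Across the 7 WT tissues the members were mostly highest in small intestine or in white adipose tissue. Brain had the lowest value, ties included, for 17 of 38 members against 16.9% of all genes, whereas muscle had it for 19, close to its share of all genes (47.6%). Each of the 7 tissues was the highest for its own marker list, for example 2566 summed FPKM of 5 intestinal epithelium markers in small intestine against 39.0 in liver, the next tissue. Small intestine had the highest value for 23 of 38 members, where 27.1% of the 18327 genes with at least 1 FPKM in some tissue were highest there. For 22 of them it lay at least 1 above the median of the other tissues on log2(FPKM + 1), against 21.3% of all genes. White adipose tissue was highest for 10 members (20.2% of all genes) and by at least 1 for 8 (14.0%), liver for 4 (8.18%) and by at least 1 for 3 (7.02%), and brown adipose tissue for 1 (5.72%), also by at least 1 (3.86%). Tibialis anterior muscle, heart and brain were highest for 0 members, against 5.49%, 3.65% and 29.7% of all genes. These counts depend on how the libraries are scaled: with median-ratio scaling liver was highest for 9 members and white adipose tissue for 3.

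The median FPKM of the 38 members was 13.9 in small intestine, 5.79 in white adipose tissue, 4.34 in liver, 4.14 in brown adipose tissue, 2.40 in heart, 1.01 in brain and 0.663 in tibialis anterior muscle. The median of all 18327 genes ran in another order, with 4.59 in brain and 4.44 in small intestine as the highest values and 1.15 in muscle as the lowest. In brain 19 members were under 1 FPKM, against 24.7% of all genes, and in muscle 20 were, where 47.9% of all genes were too. White adipose tissue exceeded brown adipose tissue for 31 of 38 members (70.1% of all genes), and small intestine exceeded liver for 34 (70.3%). Brown adipose tissue exceeded muscle for 36 members (64.6% of all genes) and heart exceeded muscle for 32 (55.1%).

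*Irf1*, a transcription factor induced mainly by interferon gamma, had 96.5 FPKM in small intestine, 24.1 in white adipose tissue, 14.3 in brown adipose tissue, 11.3 in liver, 5.65 in heart, 4.74 in muscle and 2.48 in brain. *Zbp1*, a sensor of nucleic acid in the Z form that triggers cell death, had 34.4 FPKM in small intestine, between 5.52 and 5.53 in liver and white adipose tissue, 1.54 in brown adipose tissue and under 1 in heart, muscle and brain. Intestine was thus the only one of the 7 tissues above 6 FPKM for *Zbp1*. *Oasl1*, a protein related to the synthetases that holds back translation of *Irf7*, had 23.7 FPKM in small intestine, 4.61 in liver and under 0.4 in the other 5 tissues. *Oas3* was at 4.35 FPKM in small intestine and at most 0.122 elsewhere. *Oas1a* and *Oas1g*, neighbouring copies of 1 synthetase, had 10.6 and 10.8 FPKM in small intestine and under 1.7 in every other tissue.

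The adipose pattern was led by *Ifi27l2a*, a small interferon-induced membrane protein. It had 943 FPKM in white adipose tissue, 258 in brown adipose tissue, 13.8 in small intestine, 13.0 in heart, 5.01 in liver, 0.366 in muscle and 0.126 in brain. No other member reached 100 FPKM in any of the 7 tissues. *Gbp3*, a guanylate-binding protein that attacks vacuoles of microbes, had 41.2 FPKM in white adipose tissue, 28.3 in brown adipose tissue and 26.5 in small intestine. *Ifit3*, which strengthens the binding of foreign RNA by IFIT1, had 30.6 FPKM in the white and 14.7 in the brown depot. *Bst2*, the tetherin that holds budding viruses at the cell surface, was highest in liver with 58.9 FPKM, followed by 22.9 in small intestine. *Rsad2*, whose product viperin makes a chain-terminating nucleotide, was the only member highest in brown adipose tissue, with 4.70 FPKM against 2.87 in white adipose tissue. *Mx2* was highest in liver with 2.24 FPKM, and *Mx1* did not exceed 3.18 FPKM in any tissue.

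**Figure D2:**
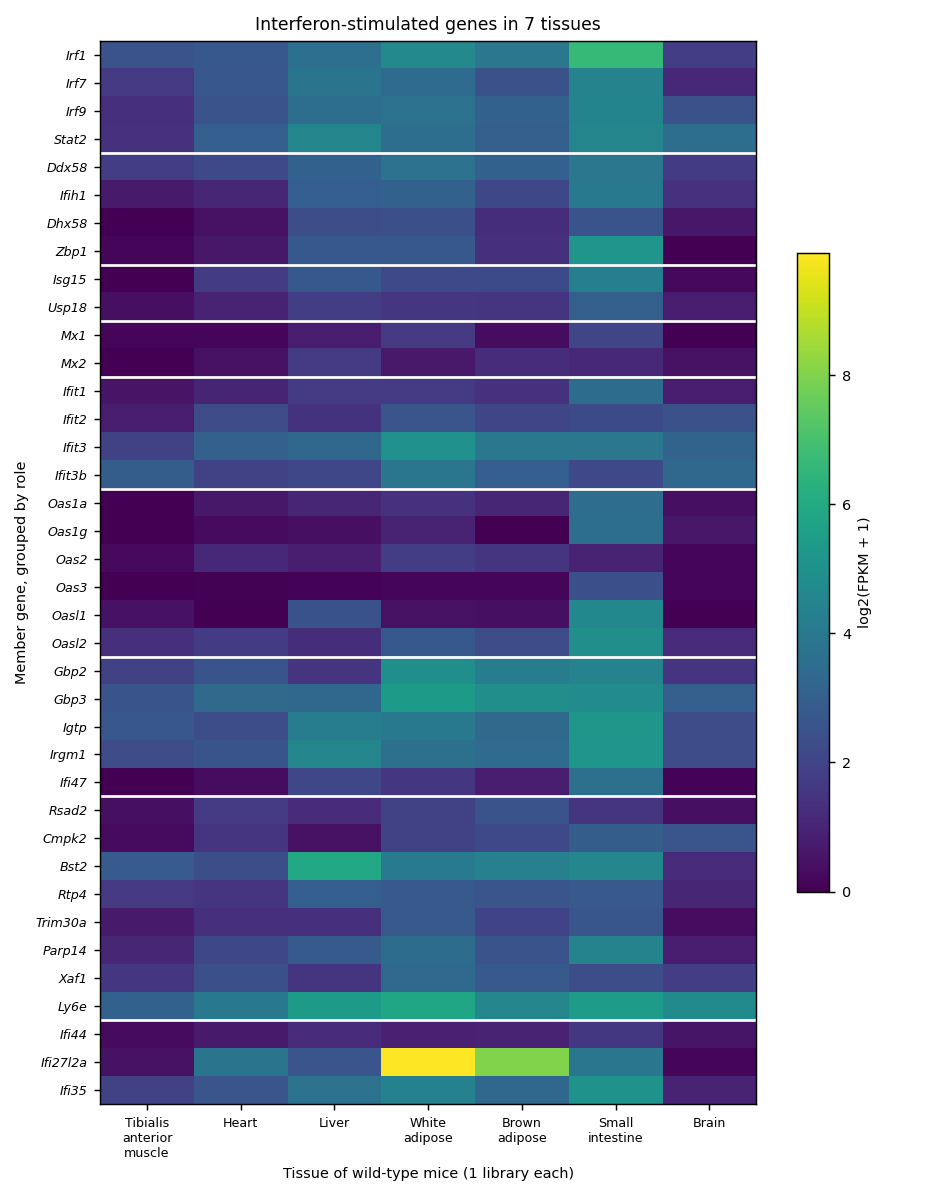
Level of the 38 members in 7 tissues of WT mice as log2(FPKM + 1), with 1 library per tissue (columns) and members grouped by role between white lines (rows). *Ifi27l2a* reaches 943 FPKM in white adipose tissue, and the small intestine column holds the highest value of 23 members.

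Immune and other marker lists differed between these tissues too. Summed FPKM of the 10 T cell markers was 60.0 in small intestine, followed by 12.2 in brain and then 10.04 in white adipose tissue, and of the 8 B cell markers 37.5 in small intestine and at most 3.95 elsewhere. The 8 macrophage markers summed to 456 FPKM in white adipose tissue and 149 in small intestine, and to 16.1 in muscle. The 10 interferon genes looked up were listed at 0 in all 7 tissues, except *Ifnb1* at 1.15 FPKM in brown adipose tissue and *Ifng* at 0.385 in small intestine. Whether these cells carry the members' levels was not tested, and in bulk tissue fewer cells of a type and less RNA per cell cannot be told apart.

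Cold-exposed iWAT of WT mice had higher levels of most members than cold-exposed BAT of WT mice. The tables of the depots were made separately, so the values are set side by side without a test. For 37 of 38 members all 3 WT iWAT libraries lay above all 3 WT BAT libraries, as 73.0% of 11507 genes did. The median ratio of the WT means was 4.67 for the members and 1.98 for all these genes. The ratio ran from 1.15 for *Rsad2* (3.79 against 3.29 FPKM) to 21.6 for *Zbp1*, leaving out *Oas3*, which 2 of the 3 BAT libraries list at 0. *Mx1* had the next largest ratio, 14.7. *Ifi27l2a* averaged 2002 ± 280 FPKM (SD, n = 3) in WT iWAT and 226 ± 50.7 in WT BAT, and *Zbp1* averaged 15.3 ± 4.44 and 0.709 ± 0.0908 FPKM. The BAT libraries had 48.4% to 51.3% of their FPKM in their 10 most abundant genes and the iWAT libraries 11.9% to 13.0%, and the iWAT table lists no mitochondrially encoded gene against 37 in the BAT table.

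Before the genotypes are compared, some libraries stand apart. *Ostn* had 0, 0 and 0.225 FPKM in the 3 WT libraries of iWAT and 0, 5.17 and 4.21 in the 3 labelled MCK-Musclin. The iWAT library labelled MCK-Musclin 1 thus lists the transgene at 0. Its muscle markers were low too, for example *Tnnt3* at 2.46 FPKM against 32.1 and 42.6 in MCK-Musclin 2 and 3. A wrong genotype label and a lack of muscle RNA in this library cannot be told apart. The library was kept in its labelled group, and the counts are also given without it. In BAT *Ostn* had 0 in all WT libraries and 37.9, 31.6 and 30.3 FPKM in MCK-Musclin. Skeletal muscle markers summed to between 7.99 and 2151 FPKM in WT iWAT and between 6.04 and 89.7 in MCK-Musclin iWAT, with *Ckm* listed at 0 in WT library 1 and in the library labelled MCK-Musclin 1. FPKM summed to between 364710 and 384104 per iWAT library and between 676362 and 720852 per BAT library. Read depth is not given by FPKM and is unknown here.

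In iWAT of MCK-Musclin mice all 38 members had a higher fitted level than in WT, and 16 of the 38 (42.1%) were higher at the cutoff of the study, an unadjusted p under 0.05 and a log2 fold change above 0.5 in the limma fit. Of all 12197 genes tested 5.04% were higher at this cutoff, and 0.902% were lower, as were 0 members. For 17 members all MCK-Musclin libraries exceeded all WT libraries, against 17.9% of all genes, and for 0 members all lay below, against 5.44%. The median log2 fold change on FPKM + 1 was 0.57 for the members and 0.06 for all genes, and the members ran from 0.10 (*Ifi27l2a*) to 1.72 (*Mx1*). A log2 fold change above 0 was found for 38 of 38 members and for 61.3% of all genes. No member and no other gene had an adjusted p under 0.05 with limma, where the smallest was 0.143 among the members and 0.0912 among all genes, while 23 members had an unadjusted p under 0.05 in the higher direction (13.1% of all genes). The count of 16 rests on single libraries: it was 6 without MCK-Musclin 2 (5.47% of all genes) and 7 without WT 3 (4.48%). It was 25 without the library labelled MCK-Musclin 1 (5.74%) and 27 without WT 1 (6.92%). Of all genes at the cutoff 84.8% were higher, against 75.1% after rescaling to TPM and 69.5% with median-ratio scaling.

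**Figure D3:**
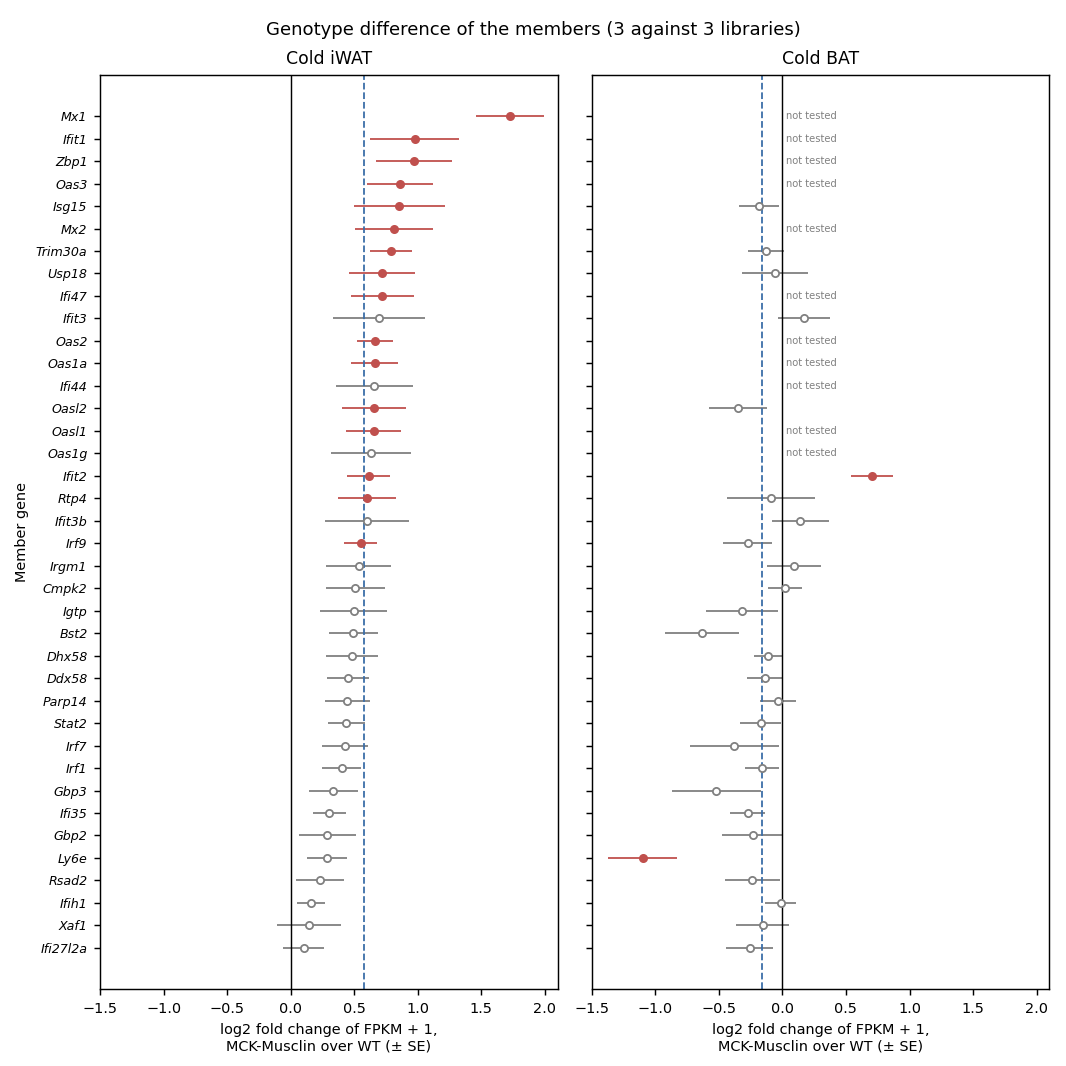
Difference between MCK-Musclin and WT mice for each member in cold iWAT (left) and cold BAT (right), as the limma log2 fold change of FPKM + 1 with its SE, 3 against 3 libraries. Red points are at the cutoff of the depot and the dashed line is the median of the members, 0.57 in iWAT and -0.16 in BAT, where 11 members were under a mean of 1 FPKM and not tested.

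The 2 members of the Mx GTPase family gave the largest median log2 fold change of the 9 roles in iWAT, 1.27. These are RNA levels, and whether either gene makes a working protein in these mice was not tested. *Mx1* (chromosome 16, 97447035 to 97462907, minus strand) had 4.54, 4.23 and 2.64 FPKM in the WT libraries and 9.88, 20.5 and 15.2 in MCK-Musclin. The groups did not overlap, and the library labelled MCK-Musclin 1 was the lowest of its group. The mean was 3.80 ± 1.02 in WT and 15.2 ± 5.29 FPKM in MCK-Musclin (SD, n = 3), a log2 fold change of 1.72 ± 0.27 (SE; adjusted p = 0.143 with limma). *Mx2* (chromosome 16, 97535308 to 97560900, plus strand), a polymorphic pseudogene in the annotation, had 1.83, 2.23 and 1.56 FPKM in WT and 2.27, 7.17 and 3.75 in MCK-Musclin. Its groups just failed to overlap, with WT 2 directly under the library labelled MCK-Musclin 1, and it had a log2 fold change of 0.81 ± 0.31 (adjusted p = 0.260 with limma).

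Among the sensors *Zbp1* (chromosome 2, 173206612 to 173218923, minus strand) differed most, with 20.3, 13.6 and 12.0 FPKM in WT and 20.8, 45.5 and 29.0 in MCK-Musclin. The highest WT library lay just under the lowest MCK-Musclin library, and the log2 fold change was 0.97 ± 0.30 (SE; adjusted p = 0.195 with limma). *Ddx58*, which encodes RIG-I, and *Dhx58*, which encodes its relative LGP2, had log2 fold changes of 0.45 and 0.48 and did not reach the cutoff, and their groups overlapped. *Ifih1*, which encodes MDA5, had 9.07, 8.36 and 7.02 FPKM in WT and 9.12, 9.24 and 9.17 in MCK-Musclin, a log2 fold change of 0.16 ± 0.11. Exons of *Dhx58* overlap those of an antisense gene, and the reads were aligned without strand.

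*Isg15*, a ubiquitin-like protein that is joined to other proteins, had 8.72, 4.80 and 3.78 FPKM in WT and 8.17, 18.1 and 8.11 in MCK-Musclin. WT library 1 lay above MCK-Musclin 3 and the library labelled MCK-Musclin 1, so the groups overlapped, and the log2 fold change of 0.86 ± 0.36 was 0.50 without MCK-Musclin library 2. *Usp18*, the protease that removes ISG15 and dampens the interferon receptor, had 7.63, 5.86 and 4.64 FPKM in WT and 8.15, 15.8 and 8.73 in MCK-Musclin. Its groups did not overlap, with a log2 fold change of 0.72 ± 0.26 (adjusted p = 0.241 with limma), which was 0.44 without MCK-Musclin library 2.

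IFIT proteins bind RNA that lacks host marks at its end. *Ifit1* had 6.64, 6.20 and 4.04 FPKM in WT and 6.71, 20.0 and 12.0 in MCK-Musclin, and *Ifit2* had 9.41, 8.73 and 9.30 against 11.02, 18.0 and 15.4. Neither overlapped, although WT 1 and the library labelled MCK-Musclin 1 were nearly level for *Ifit1*, and both were at the cutoff with log2 fold changes of 0.98 ± 0.35 and 0.61 ± 0.17. *Ifit3* (65.3, 54.1 and 32.4 against 53.0, 130 and 72.6 FPKM) and *Ifit3b* (28.4, 21.2 and 16.0 against 21.9, 53.6 and 29.9) overlapped between the groups and were not at the cutoff. In both, library 1 was the highest WT library and library 2 the highest of MCK-Musclin, and 51.2% of the 50-base stretches of *Ifit3* also occur in *Ifit3b*, so reads of these copies could be split between them.

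Oligoadenylate synthetases make the messenger that turns on RNase L. Of the 6 members of their family, counting the related *Oasl1*, 5 were higher at the cutoff, against 5.04% of all genes. *Oas2* had 3.13, 2.08 and 2.15 FPKM in WT and 4.38, 4.71 and 4.20 in MCK-Musclin. All MCK-Musclin libraries lay more than 1 FPKM above the highest WT library, with a log2 fold change of 0.66 ± 0.14 (adjusted p = 0.148 with limma). *Oas3* had 0.718, 0.393 and 0.292 FPKM against 1.02, 2.95 and 1.31, and *Oas1a* had 7.62, 6.05 and 4.62 against 8.50, 10.01 and 11.9. Both were separated by genotype, with log2 fold changes of 0.86 ± 0.26 and 0.66 ± 0.19. *Oasl1* and *Oasl2* were at the cutoff with 0.65 and 0.66 but their groups overlapped. *Oas1g* had 4.47, 1.10 and 2.34 FPKM in WT and 3.93, 4.49 and 4.30 in MCK-Musclin, was not at the cutoff (0.63 ± 0.31), and shares 45.2% of its 50-base stretches with *Oas1a*.

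**Figure D4:**
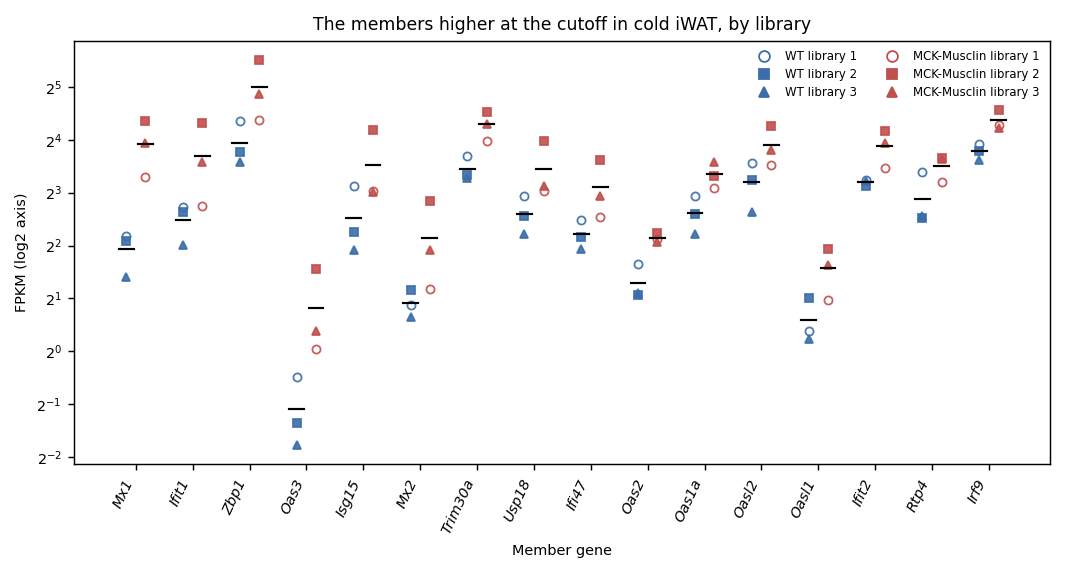
FPKM in every library of cold iWAT (log2 axis) for the 16 members higher at the cutoff, ordered by log2 fold change, with WT in blue, MCK-Musclin in red, symbols for library number and black bars for group means. *Mx1* and *Oas2* leave a clear gap between the genotypes, while for *Isg15*, *Oasl1*, *Oasl2* and *Rtp4* the groups overlap, and MCK-Musclin library 2 (red squares) is the highest for most genes.

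The 4 transcription factors differed by less. In none of them did the groups overlap, and 17.9% of all genes were separated in the same direction. *Irf9*, the DNA-binding part of the complex with STAT2, had 15.2, 13.8 and 12.3 FPKM in WT and 19.5, 23.7 and 18.7 in MCK-Musclin, a log2 fold change of 0.55 ± 0.13 (adjusted p = 0.148 with limma), and was the only one of the 4 at the cutoff. *Stat2* had 15.1, 13.0 and 10.3 against 16.1, 18.8 and 17.7 FPKM. *Irf7*, which drives interferon alpha genes, had 18.3, 18.4 and 11.9 against 19.4, 25.0 and 21.0, and *Irf1* had 36.3, 37.7 and 30.6 against 42.9, 57.0 and 40.3. Their log2 fold changes of 0.44, 0.43 and 0.40 lay under the cutoff of 0.5. Exons of *Irf9* overlap those of *Rnf31* and exons of *Irf7* those of *Phrf1*, so reads there could belong to either gene.

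Of the GTPases that act on the vacuoles of microbes, which are induced mainly by interferon gamma, only *Ifi47* was at the cutoff. It had 5.62, 4.47 and 3.84 FPKM in WT and 5.85, 12.3 and 7.62 in MCK-Musclin, a log2 fold change of 0.72 ± 0.25. *Gbp2*, *Gbp3*, *Igtp* and *Irgm1* had 0.29, 0.34, 0.49 and 0.53, and in each of them WT library 1 lay above the lowest MCK-Musclin library. Among the 8 other antiviral effectors *Trim30a*, a ubiquitin ligase that restrains inflammatory signalling, had 12.9, 10.04 and 9.72 FPKM in WT and 15.8, 23.1 and 19.7 in MCK-Musclin. Its groups did not overlap, with a log2 fold change of 0.79 ± 0.16 (adjusted p = 0.143 with limma) that stayed between 0.66 and 0.92 when any 1 library was left out. *Rtp4* was at the cutoff with 0.60 ± 0.23 and overlapping groups. *Bst2* had 40.3, 37.2 and 23.3 against 44.7, 47.6 and 46.9 FPKM, without overlap and with a log2 fold change of 0.49, just under the cutoff.

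Some members showed little or no difference. *Rsad2* had 4.21, 3.82 and 3.33 FPKM in WT and 3.23, 5.05 and 5.81 in MCK-Musclin, a log2 fold change of 0.23 ± 0.19. *Xaf1*, a partner of inhibitors of cell death, had 0.15 ± 0.25, and *Ly6e*, a surface protein that blocks virus fusion, had 0.28 ± 0.16. *Ifi27l2a*, the most abundant member, had 1721, 2281 and 2005 FPKM in WT and 2045, 1920 and 2485 in MCK-Musclin, a log2 fold change of 0.10 ± 0.16. The difference was thus smallest in the most abundant member, and *Mx1*, with the largest, averaged under 4 FPKM in WT.

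The members moved together within a genotype as well. WT library 1 was the highest WT library for 32 of 38 members and WT library 3 the lowest for 33, while among all genes tested WT library 1 was highest for 36.7% and WT library 3 lowest for 34.9%. In MCK-Musclin library 2 was the highest for 31 members (37.4% of all genes), and the library labelled MCK-Musclin 1, which lists *Ostn* at 0, was the lowest for 32 (38.4% of all genes). The mean log2(FPKM + 1) of the 38 members was 3.92, 3.67 and 3.39 in the WT libraries and 3.93, 4.53 and 4.25 in MCK-Musclin. WT library 1 and the library labelled MCK-Musclin 1 thus had nearly the same mean. MCK-Musclin library 2 exceeded all WT libraries for 37 members (41.0% of all genes tested), library 3 for 33 (40.1%) and the library labelled MCK-Musclin 1 for 17 (34.6%).

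Markers of lymphoid cells moved with this difference. For the counts that follow, 5.04% of all genes tested were higher at the iWAT cutoff and 0.902% were lower. All 8 B cell markers were higher at the cutoff in MCK-Musclin iWAT, with summed FPKM of 146 to 285 in WT and 320 to 425 in MCK-Musclin, and so were all 5 listed markers of lymph node stroma (150 to 327 against 347 to 564). Of 9 T cell markers 5 were at the cutoff (96.0 to 127 against 178 to 186), of 5 natural killer cell markers tested 1, of 5 plasmacytoid dendritic cell markers tested 2 (51.1 to 81.4 against 83.7 to 94.2, where *Bst2* is a member too), of 8 macrophage markers 1 (397 to 418 against 383 to 565) and of 4 neutrophil markers 2. Of 8 brown adipocyte markers 6 were lower (577 to 1073 against 118 to 648), and of the 10 general adipocyte and the 7 skeletal muscle markers 0 were at the cutoff in either direction. For the brown adipocyte markers the mean log2(FPKM + 1) was 4.71, 5.35 and 5.48 in WT and 4.93, 3.55 and 2.63 in MCK-Musclin. The library labelled MCK-Musclin 1 thus lay in the WT range here, but above it in the T cell and lymph node stroma markers. The mean log2(FPKM + 1) of the B cell markers was 4.71, 3.94 and 3.84 in WT and 4.89, 5.22 and 5.07 in MCK-Musclin. WT library 1 was the highest and WT library 3 the lowest, as for the members. The T cell markers had 3.55, 3.18 and 3.53 in WT and 4.05, 3.94 and 3.99 in MCK-Musclin. Lymph node stroma had 4.24, 4.02 and 3.92 in WT and 4.81, 4.80 and 5.01 in MCK-Musclin. These 2 lists were lowest of MCK-Musclin in library 2, where most members were highest. When each library was centred on the 3 lymphoid lists (lymph node stroma, T and B cells), 1 member (*Mx1*, log2 fold change 0.98) was higher at the cutoff, as were 0.0902% of all genes, and 4 were lower, as were 76.8% of all genes, and the median of the members was -0.17 and that of all genes -0.68. When centred on the general adipocyte markers, 32 members were higher at the cutoff (15.2% of all genes), with a median of 0.78 against 0.26 for all genes tested.

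**Figure D5:**
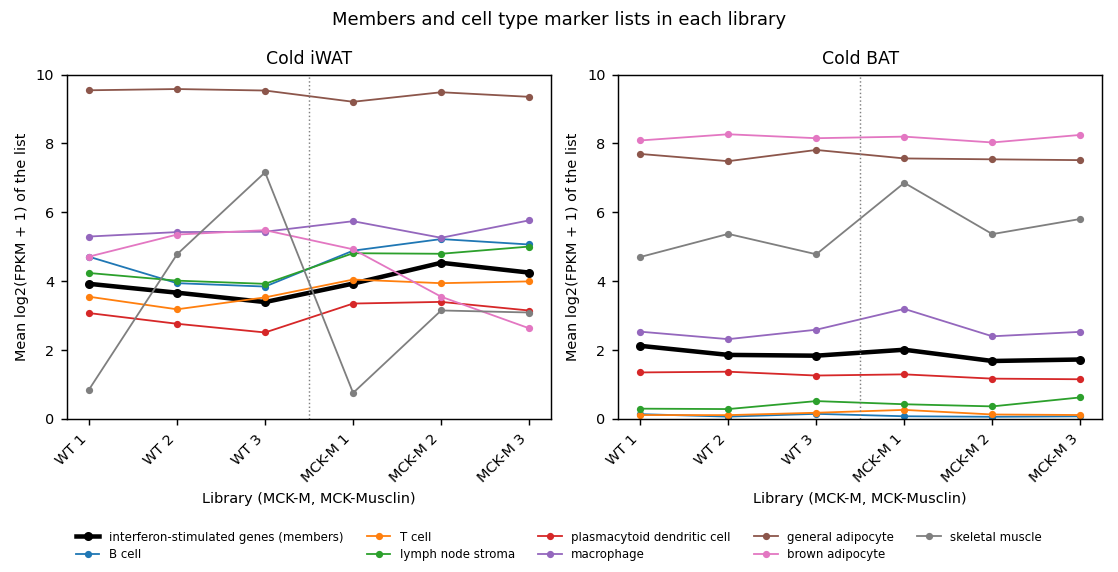
Mean log2(FPKM + 1) of the 38 members (thick black) and of marker lists in each library of cold iWAT (left) and cold BAT (right), with lines joining the values of a list and a dotted line between the genotypes. In iWAT the members and the B cell markers are both lowest in WT library 3, and in BAT the B and T cell markers stay under 0.3.

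In BAT the members showed no common increase. Of 38 members 11 were under a mean of 1 FPKM and were not tested: *Mx1*, *Mx2*, *Ifit1*, *Ifi44*, *Ifi47*, *Oas1a*, *Oas1g*, *Oas2*, *Oas3*, *Oasl1* and *Zbp1*. At the cutoff of the study for BAT, an unadjusted p under 0.05 and a log2 fold change beyond 0.3, 1 of 27 members tested was higher (1.85% of 10893 genes) and 1 was lower (2.15%). For 1 member all MCK-Musclin libraries exceeded all WT libraries (4.38% of all genes) and for 2 all lay below (5.63%). The median log2 fold change was -0.16 for the members and -0.01 for all genes, and 5 of 27 members were above 0 (47.7% of all genes). No member had an adjusted p under 0.05 with limma, and the smallest was 0.929. Leaving out 1 library moved these counts: 2 were higher without WT 1 (1.67% of all genes), which was the highest WT library for 26 of the 38 members. Without MCK-Musclin 1, 5 were lower (2.23% of all genes), and without WT 3 it was 4 (2.20%). Without WT 2, 3 were lower (2.27%), and without MCK-Musclin 3 it was 2 (2.52%).

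*Ifit2* was the member higher at the cutoff in BAT. It had 0.991, 0.891 and 0.648 FPKM in WT and 2.43, 1.51 and 2.13 in MCK-Musclin, without overlap, and a log2 fold change of 0.71 ± 0.16 (SE; adjusted p = 0.929 with limma). It was thus higher in MCK-Musclin mice in both depots. *Ly6e* was the member lower at the cutoff, with 12.7, 23.9 and 28.6 FPKM in WT and 9.09, 10.5 and 7.86 in MCK-Musclin, a log2 fold change of -1.10 ± 0.27 (adjusted p = 0.929 with limma), while its value in iWAT was 0.28. *Ifi35*, a leucine zipper protein, had 5.14, 5.21 and 5.78 FPKM in WT and 4.38, 3.53 and 4.98 in MCK-Musclin, all below but with a log2 fold change of only -0.27. *Bst2* had 20.7, 16.1 and 10.7 against 14.3, 7.22 and 8.26 FPKM, which overlapped (-0.63 ± 0.29), and *Gbp3* had 37.3, 28.0 and 15.4 against 26.6, 14.7 and 13.3 (-0.52 ± 0.35).

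The members that differed most in iWAT were low in BAT. *Mx1* had 0.277, 0.338 and 0.163 FPKM in WT BAT and 0.352, 0.0521 and 0.0863 in MCK-Musclin BAT, and *Zbp1* had 0.748, 0.605 and 0.773 against 1.48, 0.463 and 0.361. Neither was separated by genotype. *Isg15* had 1.60, 1.47 and 1.17 against 1.51, 0.934 and 0.955 FPKM (-0.19 ± 0.16), *Irf9* had 5.08, 4.43 and 3.07 against 3.28, 2.56 and 3.99 (-0.27 ± 0.19), and *Usp18* had 1.84, 1.48 and 1.62 against 2.77, 0.796 and 1.40 (-0.06 ± 0.26). The lymphoid markers that moved in iWAT were near 0 in BAT: the 8 B cell markers summed to at most 0.976 FPKM and the 10 T cell markers to at most 2.12 in any library. Skeletal muscle markers were higher at the cutoff in MCK-Musclin BAT for 5 of 7, against 1.85% of all genes. Their summed FPKM was 269 to 427 in WT and 439 to 1044 in MCK-Musclin. The part of muscle RNA in the BAT values was not tested.

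The rest of the pathway was looked up from lists of its ligands, receptors, upstream sensors, brakes and other induced genes. Of the 10 interferon genes the iWAT table lists 0, and the BAT table lists all 10 at 0 in every library. Only 13756 genes are listed for iWAT against 55487 for BAT, so an unlisted gene in iWAT is not a measured 0. Of the list of receptor subunits and their signalling proteins 9 were tested in iWAT and 0 were at the cutoff, with a median log2 fold change of 0.18. Of 14 upstream sensors, adaptors and kinases 4 were higher at the cutoff, against 5.04% of all genes. Among them was *Tlr9*, a receptor for bacterial DNA in B cells and plasmacytoid dendritic cells, with 6.16, 3.79 and 3.89 against 8.42, 8.66 and 8.54 FPKM (0.79 ± 0.17). Of 6 brakes tested 4 were higher (5.04% of all genes). Among them was *Trex1*, a nuclease that clears stray DNA, with 1.45, 2.45 and 2.96 against 3.86, 4.57 and 4.77 FPKM (0.74 ± 0.19). Of the 29 genes of these 3 lists that were tested 8 were higher at the cutoff, against 5.04% of all genes. None of the 29 was lower, which is near the share of all genes (0.902%).

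Of 42 other interferon-induced genes tested in iWAT 10 were higher at the cutoff (5.04% of all genes) and 0 were lower (0.902%). Their median log2 fold change was 0.33, against 0.57 for the members. *Cxcl10*, a chemokine that draws T cells, had 2.70, 1.05 and 1.11 FPKM in WT and 2.73, 11.2 and 7.55 in MCK-Musclin (1.54 ± 0.44; adjusted p = 0.180 with limma). *Slfn1*, of the Schlafen family, had 10.7, 7.48 and 7.99 against 14.5, 33.6 and 17.9 FPKM (1.17 ± 0.29), and *Slfn2* had 68.6, 44.2 and 50.5 against 83.7, 110 and 99.5 (0.85 ± 0.18). *Trim30d* (0.91 ± 0.17), *Ciita* (0.76 ± 0.22), the regulator of MHC class II genes, and *Helz2* (0.72 ± 0.14) were among those at the cutoff as well. Genes of this list were named only if their groups did not overlap, so the separation of those named is no added result. Of the 42 genes 16 were separated with MCK-Musclin higher, against 17.9% of all genes. In BAT 0 of 55 pathway genes tested were higher at the cutoff (1.85% of all genes) and 3 were lower (2.15%). Among these was *Ifitm3*, which blocks virus entry, with 13.0, 12.2 and 12.0 FPKM in WT and 9.31, 8.29 and 9.45 in MCK-Musclin (-0.42 ± 0.10, adjusted p = 0.929 with limma). *Myd88*, an adaptor of Toll-like receptors, was lower too, with -0.44 ± 0.15 (adjusted p = 0.968 with limma).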

How the data were processed

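Bulk RNA-seq of 19 mouse libraries was analysed from 3 deposited tables. Per the study's methods, the authors ran fastp and bowtie2 as read filters, aligned the rest by HISAT2 2.1.0 to mm10 (GRCm38) without strand, and computed FPKM per gene with StringTie. The submitters' processing notes give another Bowtie2 version (2.4.1) than the methods and name Cuffdiff, so which tool made the deposited FPKM is not settled. No read counts were used, and depth is unknown. From each of the tissue and BAT tables, 287 repeated lines were dropped. The iWAT table also holds the authors' own fold changes, p-values, FDR and mean normalized values, which were not used.

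The 38 members were matched by symbol. Members, pathway lists and marker lists were chosen with earlier results of these data known. Genes with a mean of at least 1 FPKM were tested per depot on log2(FPKM + 1) with limma 3.58.1 (trended eBayes, R 4.3.3) and Benjamini-Hochberg adjustment, and counted at the study's cutoff (unadjusted p under 0.05 and a log2 fold change of over 0.5 either way in iWAT, or over 0.3 in BAT). On this scale the change of low genes is understated. With 3 against 3 libraries an exact permutation test cannot go below 0.1, and none was used. Tissues have 1 library each and no test. Any member could be named; of the pathway lists, those at the cutoff with groups that do not overlap were named, at most 8 per depot, with the interferons. A gene that this rule also names is not reported here. Positions are from the GENCODE annotation of GRCm38 and promoters from RefSeq (GRCm38.p6). Alternatives were another pseudocount (0.1), other filters (none, a mean of at least 5), other scalings and centrings, other variance models, a replicate block and leaving out each library. Python 3.11.15, numpy 2.4.6, pandas 2.3.3, scipy 1.17.1 and matplotlib 3.10.9 were used.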

Additional observations from a re-analysis of the deposited data

Results flagged for a closer look

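*Mx2* differed between the genotypes in opposite directions in the 2 depots. The mean FPKM of MCK-Musclin was 2.35 times that of WT in iWAT, where every MCK-Musclin library (2.27, 7.17 and 3.75 FPKM) lay above every WT library (1.83, 2.23 and 1.56). In BAT it was 0.455 times that of WT, and every MCK-Musclin library (0.166, 0.357 and 0.216 FPKM) lay below every WT library (0.609, 0.657 and 0.358), with WT 3 and MCK-Musclin 2 almost level. The BAT values are under 1 FPKM and were not fitted, the tables of the depots were normalized separately, and the difference between the depots was not tested. *Mx1*, the neighbouring gene, had overlapping groups in BAT.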

How the results depend on the processing

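In iWAT 16 members were higher at the cutoff (5.04% of all genes). Centring libraries on general adipocyte markers gave 32 (15.2%), and centring on lymphoid markers (lymph node stroma, T and B cells) gave 1 (0.0902%). The count was 0 at an adjusted p under 0.05, as for all genes, and 6 to 27 when 1 library was left out (4.35% to 6.92%). The count of members whose groups did not overlap, 17, was 33 with the adipocyte centring (40.7% of all genes), 1 with the lymphoid centring (0.0656%) and 17 to 33 with 1 library left out (22.8% to 25.7%), against 17.9% of all genes as reported, and the median log2 fold change was -0.17 with the lymphoid centring. That centring reversed *Ifit2* (-0.13), *Ifi47* (-0.024), *Oas1a* (-0.082), *Oas2* (-0.080), *Oasl1* (-0.092), *Oasl2* (-0.089), *Irf9* (-0.19), *Usp18* (-0.022) and *Rtp4* (-0.14). It shifted the median of all genes to -0.68, and the members' median stayed 0.51 above it, since a centring moves all genes alike. Of all genes at the iWAT cutoff 84.8% were higher, against 98.5% with the adipocyte and 0.117% with the lymphoid centring, and in BAT 46.3%, against 88.5% with the adipocyte centring. In BAT 1 member was higher, and it was also the 1 higher whose groups did not overlap. Both counts became 0 with a mean of at least 5 FPKM, where *Ifit2* is not tested. The count at the cutoff was 0 at an adjusted p under 0.05. Both counts were 1 to 2 when 1 library was left out. Of all genes 1.53% to 2.52% were then higher at the cutoff, and 7.95% to 10.4% were higher without overlap. Among tissues, rescaling to TPM gave liver 2 members, white adipose tissue 14 by at least 1 and brown adipose tissue 0, also by at least 1. Median-ratio scaling gave muscle 1, heart 2, liver 9 (8 by at least 1), white adipose tissue 3 (2) and brown adipose tissue 3 (2). The causes were not tested. With the replicate block 15 members were higher in iWAT (5.08% of all genes), and in BAT 1 was higher (1.96%) and 3 lower (2.26%). Deviations of libraries with the same number had correlations of 0.235, 0.0615 and 0.107 in iWAT and -0.0951, -0.00463 and 0.00937 in BAT. Between libraries of different number they ran from -0.180 to 0.0702 in iWAT and from -0.0842 to 0.0795 in BAT. With 3 libraries per group these values cannot settle whether libraries of the same number belong together. FPKM without counts give no interval for members near 0.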
